A study of Mus musculus with 6 samples.

Results

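The 8 genes described here encode proteins that slow or stop the cell cycle, or that are induced with such proteins under stress: the Gadd45 family (Gadd45a, Gadd45b and Gadd45g), the cyclin-dependent kinase inhibitor gene Cdkn1a, the reprimo-like gene Rprml, the antiproliferative gene Btg2, the cyclin G1 gene Ccng1 and the epithelial membrane protein gene Emp1. They were chosen by gene symbol, 8 of the 23492 genes with reads, when the gene-level difference between control and cold-exposed mice was already known. Their values in that contrast are therefore given as a description, without p-values, and support nothing.

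Epididymal white adipose tissue, the fat pad along the epididymis, was taken from wild-type male C57BL/6N mice, an inbred strain, aged 20 weeks. The ctrl group held 3 mice (5, 6 and 10) and the cold group 3 mice (7, 12 and 16), the latter kept alone at 4 °C for 24 h, while base housing was at 22 to 24 °C; whether control mice were also kept alone is not given in the labels. Polyadenylated RNA of the whole pad was sequenced as direct cDNA on a nanopore device, and reads were counted per annotated transcript. Each library is 1 mouse and is named by its group and mouse number.

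Gadd45 proteins are small acidic nuclear proteins that bind the kinase MAP3K4 and so feed stress signals into the p38 and JNK pathways, and they also bind PCNA and the cyclin B1 and CDK1 complex. Cdkn1a encodes p21, which blocks cyclin-dependent kinases and is a classical target of the transcription factor p53, as are Ccng1, Btg2 and Gadd45a. In brown fat, Gadd45g is known as a gene induced by cold through β-adrenergic signalling, and in white fat p21 is best known from differentiating preadipocytes, which leave the cell cycle before they fill with lipid. A mature adipocyte does not divide, so in a whole fat pad these mRNAs come from a mixture of resting adipocytes and stromal, vascular and immune cells.

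Libraries held 726283 to 1341592 reads, so that 1 read stands for about 0.75 to 1.38 CPM (the reads of a gene per 1000000 reads assigned to genes). The summed CPM of 11 adipocyte markers, with 0 of them called, was 48054 to 53021 in ctrl and 48638 to 52078 in cold mice, so the labelled tissue carried its defining mRNAs in every library. Markers of other cells differed between groups: 9 genes of duct epithelium summed to 14.2 to 53.3 CPM in ctrl and 157 to 444 CPM in cold mice, with 6 of 6 tested genes higher (edgeR), and 8 sperm and spermatid genes to 2.13 to 13.4 CPM in ctrl and 119, 139 and 12.8 CPM in cold 7, cold 12 and cold 16. All 9 epithelial and all 8 sperm markers had reads. Of the epithelial markers, Epcam, Cdh1, Cldn7, Cldn3 and Cdh16 had between 0 and 4 reads in each ctrl library. Krt8, Krt18 and Mmp7 reached 7 reads in a ctrl library, and Lrp2 had 16, 10 and 10 in ctrl 5, ctrl 6 and ctrl 10. The summed markers of endothelium were 766 to 804 CPM in ctrl and 608 to 765 CPM in cold mice. They were only just without overlap, at 766.0 CPM in ctrl 6 and 765.2 CPM in cold 16. Those of lymphocytes were 17.9 to 29.9 and 10.2 to 17.9 CPM, overlapping by ctrl 6 and cold 7. The sums also overlapped for progenitors and fibroblasts (2488 to 3640 and 2712 to 3814 CPM), macrophages (829 to 1012 and 623 to 1168 CPM), mesothelium (76.2 to 214 and 83.9 to 175 CPM), and pericytes and smooth muscle (664 to 725 and 625 to 777 CPM). No marker was at 0 in all mice, and 0 genes of these 6 lists were called, although 0 of the 9 lymphocyte and 4 of the 8 mesothelial genes had enough reads to be tested. The part of any of these cells in the values below was not tested. In RNA from a whole pad, fewer cells of a type and less RNA per cell cannot be told apart.

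All 8 genes passed the filter on low counts. By the fit over all genes, 3 of the 8 were past the threshold (edgeR quasi-likelihood test, Benjamini-Hochberg adjusted p under 0.05), all lower in the cold: Gadd45g, Rprml and Emp1. Among the 9772 genes tested, 0.655% were called, 0.113% lower and 0.542% higher. The 2 groups did not overlap in CPM in 4 of the 8 genes, the 3 lower ones and Gadd45b, which was higher, against 13.7% of all tested genes (7.7% lower and 5.96% higher). Since the genes were picked from this contrast, nothing is read from these shares. By sign, 5 of the 8 were lower and 3 higher, and their median log2 fold change was -0.10, beside 0.01 over all genes tested.

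**Figure D1:**
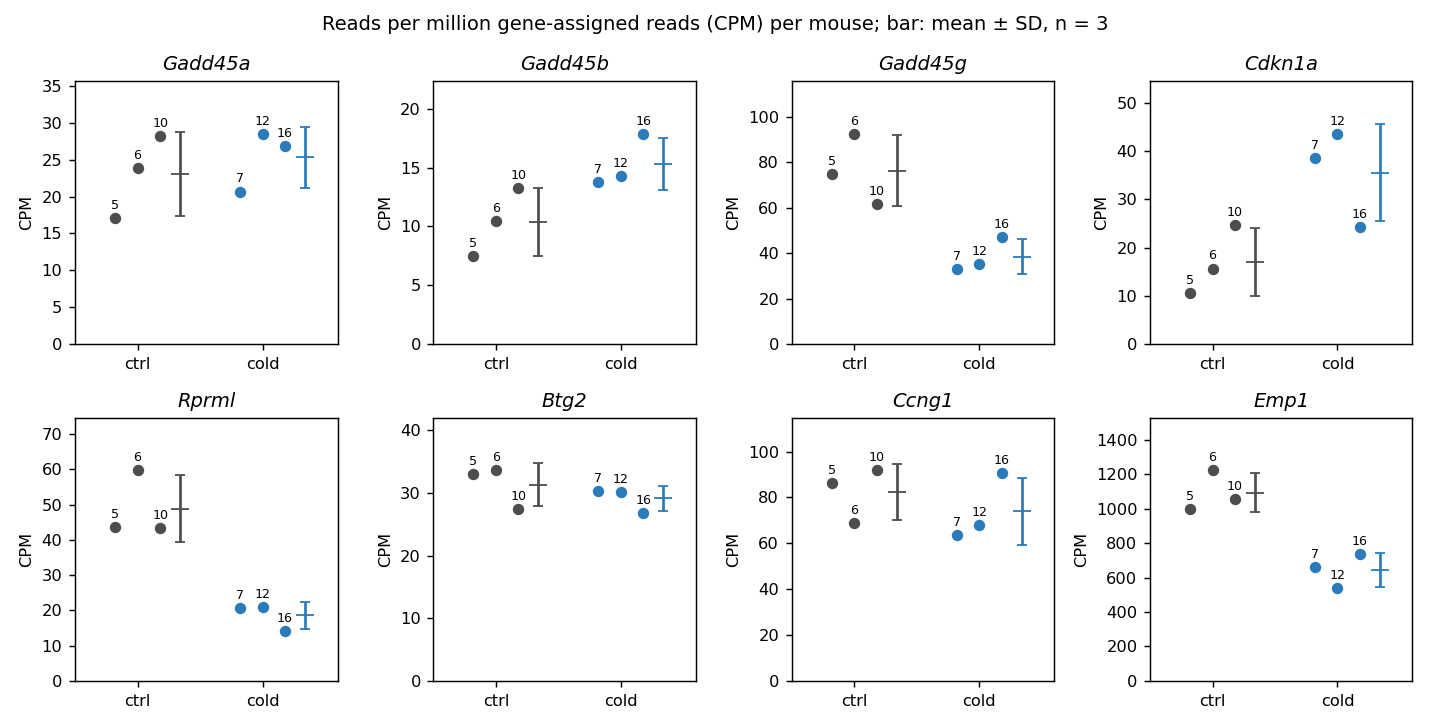
CPM (y axes, each from 0) of the 8 genes in each mouse; points carry mouse numbers, grey is ctrl and blue is cold, and the bars give mean ± SD (n = 3). Rprml, Gadd45g and Emp1 have every cold mouse below every ctrl mouse, Gadd45b has every cold mouse above, and in the other 4 genes the groups overlap.

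Within the Gadd45 family, Gadd45g fell, Gadd45a differed by less than its error and Gadd45b was not past the threshold. Gadd45g (ENSMUSG00000021453.2, GRCm38 chromosome 13, 51846678 to 51848468), the family member known for its induction by cytokines, had 70 reads in ctrl 5, 124 in ctrl 6 and 70 in ctrl 10, and 24, 42 and 37 reads in cold 7, cold 12 and cold 16. In CPM these were 74.7, 92.6 and 61.8 in the controls and 33.1, 35.2 and 47.3 in the cold. The lowest control mouse lay above the highest cold mouse. The group means were 76.3 ± 15.5 and 38.5 ± 7.64 CPM (SD, n = 3), 1.98-fold lower in the cold, with a fitted log2 fold change of -0.98 ± 0.21 (SE). Counting error alone would give an SD of 8.23 CPM in ctrl and 6.72 CPM in the cold, so the control mice differed among themselves by more than counting and the cold mice by about as much.

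Gadd45a (ENSMUSG00000036390.8, chromosome 6, 67035096 to 67037457), the family member that p53 induces after DNA damage, had 17.1, 23.9 and 28.2 CPM in ctrl 5, ctrl 6 and ctrl 10. The cold mice had 20.7, 28.5 and 26.8 CPM in cold 7, cold 12 and cold 16, inside or just above the range of the controls. The means were 23.1 ± 5.63 and 25.3 ± 4.12 CPM (SD, n = 3), a log2 difference of 0.16 ± 0.26 (SE) that is smaller than its error. The antisense gene E230016M11Rik overlaps Gadd45a, and it held 0 to 4 reads per library; whether strand was used in counting is not given.

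Gadd45b (ENSMUSG00000015312.9, chromosome 10, 80930073 to 80932204), the member induced by NF-κB and TGF-β signalling, was the least read, with 7, 14 and 15 reads in ctrl 5, ctrl 6 and ctrl 10 and 10, 17 and 14 in cold 7, cold 12 and cold 16. These gave 7.47, 10.5 and 13.2 CPM in the controls and 13.8, 14.3 and 17.9 CPM in the cold. The groups did not overlap, but the highest control and the lowest cold mouse were 13.2 and 13.8 CPM, closer than 1 read. The means were 10.4 ± 2.89 and 15.3 ± 2.24 CPM (SD, n = 3), beside counting errors of 3.02 and 4.24 CPM, and the log2 difference was 0.55 ± 0.34 (SE). At this depth the difference was not past the threshold.

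Because the 3 genes are counted in the same library, their proportions do not depend on the scaling between libraries. They come from the same reads as the levels above and are a description, not further support. As parts of the same total, the shares of Gadd45a and Gadd45b rise where that of Gadd45g falls. Gadd45g took 75.3% of the family's 93 reads in ctrl 5 (exact Clopper-Pearson 95% interval 65.2 to 83.6%), 72.9% of 170 in ctrl 6 (65.6 to 79.5%) and 59.8% of 117 in ctrl 10 (50.4 to 68.8%). It took 49.0% of 49 reads in cold 7 (34.4 to 63.7%), 45.2% of 93 in cold 12 (34.8 to 55.8%) and 51.4% of 72 in cold 16 (39.3 to 63.3%). Every cold mouse was below every control mouse, although the intervals of ctrl 10 and the cold mice overlap. The mean share went from 69.3 ± 8.32% to 48.5 ± 3.14% (SD, n = 3), while that of Gadd45a went from 21.1 ± 5.45% to 32.1 ± 3.92% and that of Gadd45b from 9.53 ± 2.87% to 19.4 ± 1.07%. Divided by the length of each gene's most read transcript (1223 bases for Gadd45a, 1284 for Gadd45b and 1071 for Gadd45g), the share of Gadd45g was 72.3 ± 7.87% in ctrl and 52.3 ± 3.18% in the cold. The summed level of the family was 99.2, 127 and 103 CPM in ctrl 5, ctrl 6 and ctrl 10, and 67.6, 78 and 92 CPM in cold 7, cold 12 and cold 16. The sum did not overlap between groups, and Gadd45g was its largest part in every mouse.

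**Figure D2:**
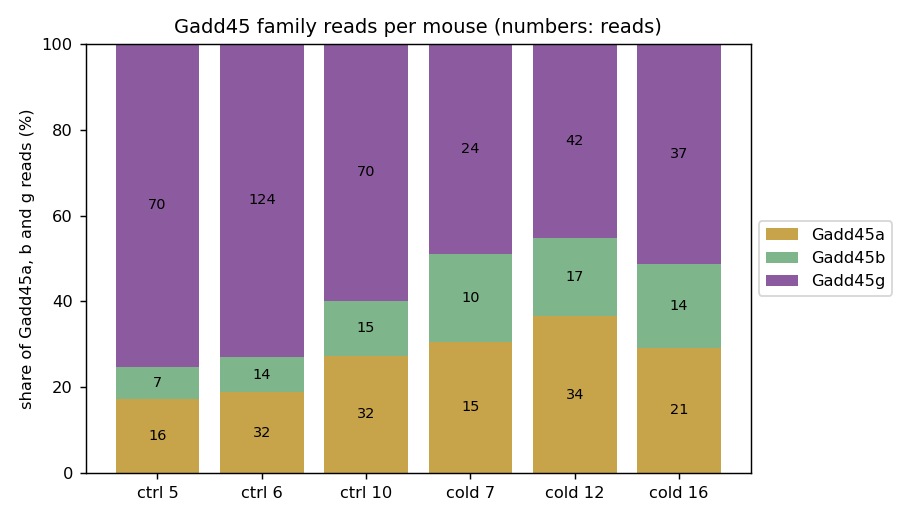
Share of the summed Gadd45a, Gadd45b and Gadd45g reads held by each gene (y axis, percent) in each mouse (x axis), with the number of reads written in each segment. Gadd45g holds 59.8% to 75.3% in the 3 ctrl mice and 45.2% to 51.4% in the 3 cold mice.

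The promoter windows of the family are shown because Gadd45g was past the threshold and the other 2 genes were not. RefSeq (GRCm38.p6) gave a window for each of the 8 genes, 10 in all, of which 7 are printed, each as the 250 bases before the annotated start, 5′ to 3′ on the gene's strand. Capitals mark every match, on either strand, to 7 motifs: CACGTG, the E-box core, TGACGTCA, the cAMP response element, TGANTCA, the AP-1 core, CCAAT, the NF-Y box, TATAAA, the TATA box, GGGCGG, the Sp1 box, and the p53 half-site. Gadd45a lies at chr6:67037408-67037657 on the minus strand, Gadd45b at chr10:80929841-80930090 and Gadd45g at chr13:51846425-51846674, both on the plus strand.
Gadd45a: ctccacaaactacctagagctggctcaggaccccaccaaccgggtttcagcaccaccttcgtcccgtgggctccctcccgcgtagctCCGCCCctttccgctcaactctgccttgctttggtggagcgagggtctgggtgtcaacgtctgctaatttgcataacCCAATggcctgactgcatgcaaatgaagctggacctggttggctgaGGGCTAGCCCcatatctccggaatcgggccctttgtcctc
Gadd45b: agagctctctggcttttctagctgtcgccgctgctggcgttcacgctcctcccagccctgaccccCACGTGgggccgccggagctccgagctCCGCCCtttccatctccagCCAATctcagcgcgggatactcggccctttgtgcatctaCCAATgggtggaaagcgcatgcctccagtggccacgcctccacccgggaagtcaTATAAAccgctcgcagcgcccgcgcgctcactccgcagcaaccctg
Gadd45g: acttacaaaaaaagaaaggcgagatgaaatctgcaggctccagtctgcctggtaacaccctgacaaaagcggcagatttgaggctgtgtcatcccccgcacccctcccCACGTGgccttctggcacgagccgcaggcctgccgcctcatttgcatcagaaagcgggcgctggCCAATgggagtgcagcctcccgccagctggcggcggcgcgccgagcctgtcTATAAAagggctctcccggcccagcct

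Gadd45b and Gadd45g both held CACGTG, starting 185 and 142 bases before the start. Of all 32536 different windows of this length, 6.04% held it. Both also held TATAAA, at 46 and 27 bases before the start (12.3% of all windows), and at least 1 CCAAT (33.8%). The window of Gadd45a held CCAAT and also held GGGCGG (33% of all windows) and, 40 bases before the start, a match to the p53 half-site (7.12%). The same Sp1 box also stood before Gadd45b, 158 bases before the start, and not before Gadd45g. Gadd45b and Gadd45g thus shared 3 of the 7 motifs, of which the NF-Y box also stood before Gadd45a. Whether any of these motifs bears on the levels was not tested. A match is a description of the letters and not a binding site.

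Cdkn1a (ENSMUSG00000023067.14, chromosome 17, 29090976 to 29100727), the gene of the kinase inhibitor p21, had 10, 21 and 28 reads in ctrl 5, ctrl 6 and ctrl 10, which are 10.7, 15.7 and 24.7 CPM. The cold mice had 28, 52 and 19 reads, which are 38.6 CPM in cold 7, 43.6 in cold 12 and 24.3 in cold 16. Cold 16 thus lay just below ctrl 10, and the groups overlapped by these 2 mice. The means were 17 ± 7.12 and 35.5 ± 10 CPM (SD, n = 3), 2.09-fold higher in the cold, with a log2 difference of 1.09 ± 0.30 (SE) that was not past the threshold. It was past it without cold 16, at 1.29, and with no filter on low counts, and not in the other 14 alternatives. The gene AC167363.2 is annotated inside Cdkn1a on the other strand and had no reads. The epithelial sums beside these levels were 157 CPM in cold 7, 444 in cold 12 and 345 in cold 16; their part was not tested.

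Of the 5 transcripts annotated for Cdkn1a, 4 had reads. Cdkn1a-201 took 50 to 76.2% of the gene's reads in the ctrl and 47.4 to 53.6% in the cold mice, and Cdkn1a-205 took 19 to 39.3% and 28.6 to 42.1%. These shares rest on 10 to 28 reads in a ctrl mouse and 19 to 52 in a cold mouse. The 76.2% was 16 of 21 reads in ctrl 6. Cold minus ctrl, the mean share of Cdkn1a-201 differed by -8.42 percentage points, and by 0.31 without ctrl 6. These 2 protein-coding transcripts start 12 bases apart (29093769 and 29093781) and share 1895 bases, 99.1% of the first and 91.1% of the second. Cdkn1a-203, which starts inside the gene at 29097900, took 10.2% of 59 reads over the ctrl and 10.1% of 99 over the cold mice. Cdkn1a-202 starts upstream, at 29090979, and had 0 of 59 reads over the ctrl mice, which allows a share of up to 5.08% by the limit of 3 reads (exact Clopper-Pearson upper bound 6.06%), and 5 of 99 over the cold mice, 1, 3 and 1 in cold 7, cold 12 and cold 16 (5.05%, exact Clopper-Pearson 95% interval 1.66 to 11.4%). The intervals of the 2 groups overlap, and a difference in that share was not tested.

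The 2 start sites of Cdkn1a are shown because their sequences differ in the motifs they hold. The upstream window, chr17:29090729-29090978, precedes Cdkn1a-202, and the downstream window, chr17:29093519-29093768, precedes Cdkn1a-201; both are on the plus strand of GRCm38.p6, with capitals as above.
Cdkn1a upstream: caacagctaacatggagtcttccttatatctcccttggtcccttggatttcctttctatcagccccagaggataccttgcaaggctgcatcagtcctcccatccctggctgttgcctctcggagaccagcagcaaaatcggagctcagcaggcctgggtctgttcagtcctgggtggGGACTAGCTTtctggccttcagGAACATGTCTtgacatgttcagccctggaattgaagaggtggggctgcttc
Cdkn1a downstream: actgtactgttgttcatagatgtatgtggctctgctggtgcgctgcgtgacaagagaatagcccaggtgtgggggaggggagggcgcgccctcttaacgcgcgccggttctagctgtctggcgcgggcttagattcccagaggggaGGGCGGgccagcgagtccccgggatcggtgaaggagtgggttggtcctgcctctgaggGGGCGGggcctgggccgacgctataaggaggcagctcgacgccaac
The upstream window held 2 matches to the p53 half-site, 73 and 51 bases before the start, and no other motif searched. The downstream window held GGGCGG at 104 and 46 bases before the start and no p53 half-site.

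Rprml (ENSMUSG00000046215.3, chromosome 11, 103649570 to 103650579) encodes a small membrane protein related to reprimo, a p53-dependent mediator of arrest in G2. It had 41, 80 and 49 reads in ctrl 5, ctrl 6 and ctrl 10, or 43.7, 59.7 and 43.2 CPM. The cold mice had 15, 25 and 11 reads, or 20.7 CPM in cold 7, 21 in cold 12 and 14 in cold 16. The highest cold mouse had less than the lowest control mouse by a margin larger than the SD of either group. The means were 48.9 ± 9.38 and 18.6 ± 3.91 CPM (SD, n = 3), 2.63-fold lower in the cold, and the log2 fold change was -1.36 ± 0.25 (SE). Of the 9772 genes tested, 2 had a lower one, a rank that only describes a gene chosen with this contrast known. The gene has 1 annotated transcript of 1 exon, 1010 bases long, so its reads cannot be told from genomic or precursor sequence by splicing. No other annotated gene lies within its span.

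The window before Rprml is shown beside its fall. It lies at chr11:103649259-103649508 on the plus strand of GRCm38.p6, with capitals as above.
Rprml: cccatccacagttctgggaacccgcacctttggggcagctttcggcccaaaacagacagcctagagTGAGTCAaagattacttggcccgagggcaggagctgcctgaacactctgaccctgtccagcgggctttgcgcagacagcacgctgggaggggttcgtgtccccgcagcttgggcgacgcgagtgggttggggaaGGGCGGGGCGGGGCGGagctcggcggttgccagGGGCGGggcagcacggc
It held 4 matches to GGGCGG, 3 of which overlap, at 50, 45 and 40 bases before the start and the last at 17, and 1 match to TGANTCA at 184 bases. TGANTCA stood in 6.73% of all windows. Of the 8 genes, Emp1 also held TGANTCA, 145 and 25 bases before its upstream start. Neither Rprml nor Emp1 held CACGTG, and none of the 7 motifs stood before all 3 genes that fell. A part of the motifs in these falls was not tested. The founding gene of the family, Rprm, had no reads in any library.

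Emp1 (ENSMUSG00000030208.15, chromosome 6, 135362545 to 135383173), a membrane protein with 4 passes related to Pmp22 and the claudins, was the best measured of the 8, with 479 to 1637 reads per library. It had 999, 1222 and 1058 CPM in ctrl 5, ctrl 6 and ctrl 10. The cold mice had 660, 539 and 736 CPM in cold 7, cold 12 and cold 16, all below the lowest control. The means were 1093 ± 116 and 645 ± 99.2 CPM (SD, n = 3), 1.69-fold lower, with a log2 fold change of -0.74 ± 0.14 (SE). Counting error would give an SD of 31.2 and 27.7 CPM, so mice of 1 group differed by more than counting.

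The reads of Emp1 were spread almost evenly over 4 long transcripts. Emp1-201, Emp1-202, Emp1-203 and Emp1-206 took 26.3%, 25%, 23.1% and 25.1% of its reads over the 6 mice, and together 99.5%. They share 2549 bases, between 87.6% and 93.7% of each, and differ in the rest. Over the 12 deposited files the chi-square statistic of their proportions was 1.01 per degree of freedom, so the proportions differed between files by about the sampling noise. Emp1-203 is annotated as a target of nonsense-mediated decay, and its share was 22.9 ± 1.40% in ctrl and 24 ± 0.97% in cold mice (SD, n = 3). How a read that fits several of these transcripts was counted is not given in the sources used here. The shares, with that of Emp1-203, and the level of Emp1 can depend on it. The shares are therefore not read as the use of each transcript. Counting genes by their most read transcript alone, a setting added after the even shares were seen, gave Emp1 a log2 fold change of -0.72.

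**Figure D3:**
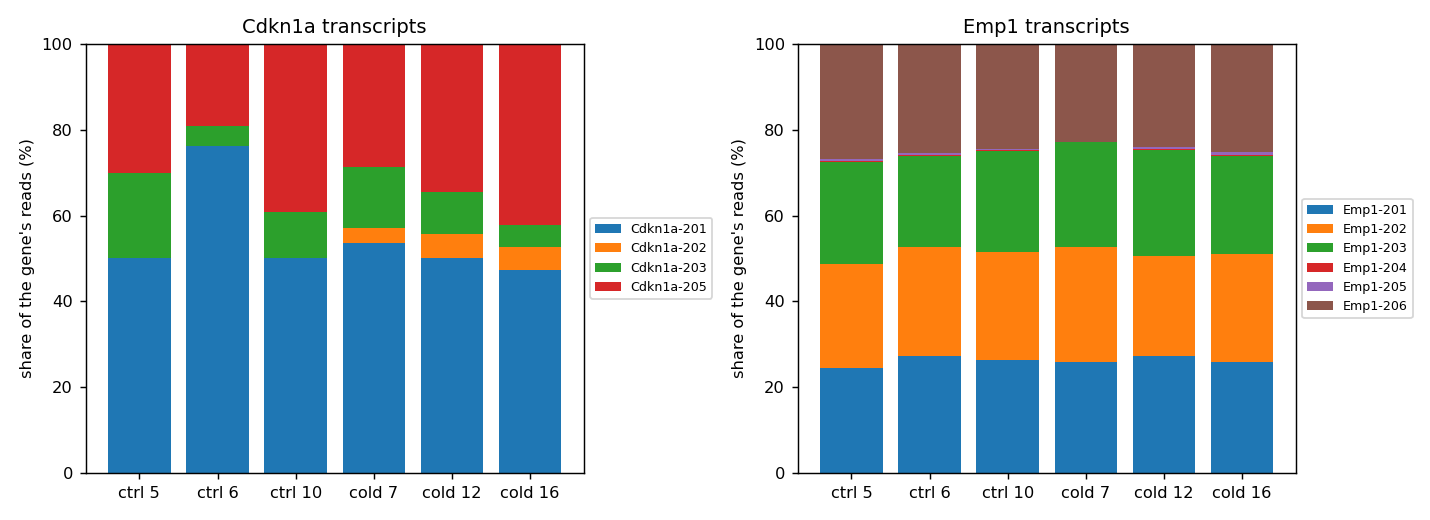
Share of the reads of Cdkn1a (left) and Emp1 (right) assigned to each annotated transcript (y axis, percent) in each of the 6 mice (x axis). The 4 long Emp1 transcripts hold nearly equal shares in every mouse, and Cdkn1a-202 has reads in the 3 cold mice.

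Btg2 and Ccng1 are targets of p53 whose levels differed by less than their spread. Btg2 (ENSMUSG00000020423.6, chromosome 1, 134075170 to 134079120), which slows proliferation and brings the Ccr4-Not deadenylase to mRNAs, had 33.1, 33.6 and 27.4 CPM in ctrl 5, ctrl 6 and ctrl 10 and 30.3, 30.2 and 26.8 CPM in cold 7, cold 12 and cold 16. The means were 31.3 ± 3.46 and 29.1 ± 1.99 CPM (SD, n = 3), and the log2 difference was -0.08 ± 0.22 (SE). Ccng1 (ENSMUSG00000020326.7, chromosome 11, 40748552 to 40755311), cyclin G1, which recruits a phosphatase to the p53 inhibitor Mdm2, had 86.4, 68.7 and 91.8 CPM in the controls. It had 63.4, 67.9 and 90.7 CPM in cold 7, cold 12 and cold 16, within or just under that range. The means were 82.3 ± 12.1 and 74 ± 14.6 CPM, a log2 difference of -0.13 ± 0.18 (SE). Of the reads of Ccng1, 99.2% were on its coding transcript Ccng1-201.

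The window before Btg2 is shown as the only one of the 10 that held TGACGTCA, the full cAMP response element, which 1.56% of all windows held. It lies at chr1:134079156-134079405 on the minus strand of GRCm38.p6, with capitals as above.
Btg2: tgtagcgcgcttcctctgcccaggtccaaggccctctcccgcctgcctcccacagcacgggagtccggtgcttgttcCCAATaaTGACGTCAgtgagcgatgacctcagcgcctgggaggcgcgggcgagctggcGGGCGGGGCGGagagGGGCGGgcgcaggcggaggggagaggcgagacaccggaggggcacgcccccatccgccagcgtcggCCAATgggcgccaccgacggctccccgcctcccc
The match begins 166 bases before the start. The level of Btg2 in the 6 mice was between 26.8 and 33.6 CPM, and a part of the match in that level was not tested.

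**Figure D4:**
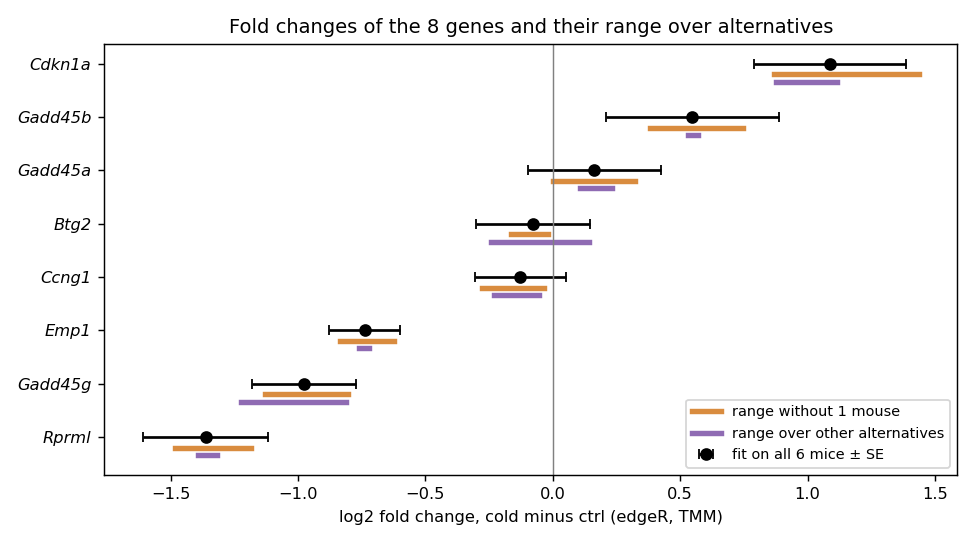
Log2 fold change, cold minus ctrl (x axis), of each gene: the black point and bar give the fit on all 6 mice ± SE, the orange line the range with 1 mouse left out and the violet line the range over the other alternatives. Rprml, Gadd45g and Emp1 keep a negative value throughout, and Cdkn1a a value of 0.87 or more. In Rprml, Gadd45g and Emp1 the groups do not overlap, so leaving out 1 mouse could not turn the sign in CPM.

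The calls of the 3 falls depended on the mice, and those of Gadd45g and Rprml also on the setting. Their direction in CPM could not turn with 1 mouse left out, because every cold mouse was below every ctrl mouse. With all mice kept, Gadd45g was not called by DESeq2, nor by edgeR from either of the 2 files of each mouse alone, and it was called in 11 of 16 alternatives. Rprml was not called from the X2 files alone, and it was called in 14 of 16 alternatives, as was Emp1. Without ctrl 6, 0 of the 8 genes were called, and without cold 12 1 was (Rprml). Ctrl 6 had the highest level of all 3 genes among the controls, 92.6 CPM for Gadd45g, 59.7 for Rprml and 1222 for Emp1. Leaving out each mouse in turn gave Rprml log2 fold changes of -1.49 to -1.18, Gadd45g -1.13 to -0.80 and Emp1 -0.84 to -0.62.

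The other genes of these pathways were read from 7 lists, without the 8 genes themselves, and 0 of them passed by edgeR, DESeq2 or limma-voom. Of 18 other tested p53 targets 13 were higher and 5 lower, with a median log2 fold change of 0.08 beside 0.01 over all genes, and 3 had an unadjusted p under 0.05, as did 8.43% of all genes tested. Mdm2, the ubiquitin ligase that p53 induces and that degrades it, had 26.7, 13.4 and 26.5 CPM in ctrl 5, ctrl 6 and ctrl 10 and 41.4, 37.7 and 31.9 CPM in cold 7, cold 12 and cold 16 (edgeR adjusted p = 0.315). The groups did not overlap in Mdm2, and in 4 of the 18 genes in all, beside 13.7% of all genes tested. Zmat3, a p53-induced RNA-binding protein, had 12.2 ± 1.75 and 19.4 ± 5.28 CPM (SD, n = 3, edgeR adjusted p = 0.553), and the death receptor gene Tnfrsf10b 13.2 ± 0.80 and 6.3 ± 2.13 CPM (edgeR adjusted p = 0.465). Trp53, the p53 gene itself, had 28.3 ± 3.15 and 25.6 ± 7.09 CPM (edgeR adjusted p = 0.958). Perp, a p53 target of desmosomes that was under the filter, had 5, 4 and 1 reads in ctrl 5, ctrl 6 and ctrl 10 and 4, 16 and 10 in cold 7, cold 12 and cold 16.

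Among 19 other G1 cyclins, kinases and inhibitors 9 were higher and 10 lower, with 0 at an unadjusted p under 0.05. Of the other inhibitor genes, Cdkn1b, which encodes p27, had 60.1 ± 3.45 and 47.3 ± 10.3 CPM (SD, n = 3, edgeR adjusted p = 0.783), and Cdkn2c, which encodes p18, 250 ± 40.2 and 211 ± 15.6 CPM (edgeR adjusted p = 0.77). The kinase gene Cdk6 had 8.38 ± 5.2 and 13.2 ± 1.76 CPM (edgeR adjusted p = 0.752). Of 23 proliferation markers, which are transcribed in dividing cells, 6 had enough reads to be tested, and 1 was higher and 5 lower, with 0 at an unadjusted p under 0.05. Mki67 and Top2a were not among them, with 0 to 9 and 1 to 10 reads per library. The ribonucleotide reductase genes Rrm1 and Rrm2 had 10.4 ± 2.05 and 13.5 ± 1.44 CPM, and 12.5 ± 5.91 and 11.2 ± 5.94 CPM (edgeR adjusted p = 0.868 and 0.961). The helicase subunit gene Mcm4 had 20.9 ± 2.73 and 17.7 ± 4.33 CPM (edgeR adjusted p = 0.92).

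The partners through which Gadd45 proteins act gave 6 higher and 10 lower of 16 tested, with 0 at an unadjusted p under 0.05. Map3k4, the kinase that Gadd45 proteins bind and activate, had 17.1, 18.7 and 19.4 CPM in ctrl 5, ctrl 6 and ctrl 10 and 11, 14.3 and 12.8 CPM in cold 7, cold 12 and cold 16. The groups did not overlap, and the log2 difference was -0.49 ± 0.30 (SE, edgeR adjusted p = 0.732). The JNK gene Mapk9 also did not overlap, at 44.8 ± 4.65 and 33.3 ± 2.64 CPM (SD, n = 3, edgeR adjusted p = 0.661). These were 2 of the 16 partners, beside 13.7% of all genes tested, so nothing is read from the lack of overlap. The nucleolar chaperone gene Npm1 had 150 ± 6.71 and 171 ± 15.9 CPM (edgeR adjusted p = 0.759).

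Of 17 other genes of the Btg and Tob family and the Ccr4-Not complex 9 were higher and 8 lower, 1 of them at an unadjusted p under 0.05. The groups had no overlap in CPM in 4 of the 17, beside 13.7% of all genes tested. Btg3 had 21.3, 20.9 and 15 CPM in the controls and 23.4, 41.9 and 23 CPM in cold 7, cold 12 and cold 16, highest in cold 12 (edgeR adjusted p = 0.45). Btg1 had 183 ± 12.7 and 150 ± 14.7 CPM (SD, n = 3, edgeR adjusted p = 0.653) and the scaffold gene Cnot1 45 ± 1.49 and 55.9 ± 11.4 CPM (edgeR adjusted p = 0.728). All 3 tested relatives of Emp1 had a negative fitted difference, 0 of them called, and in 1, Pmp22, the groups did not overlap. Pmp22, the peripheral myelin protein, had 191 ± 27.4 and 154 ± 8.96 CPM, Emp3 84.8 ± 20.4 and 80.1 ± 29.8 CPM, and Emp2 25.5 ± 8.4 and 25.1 ± 6.75 CPM (edgeR adjusted p = 0.61, 0.967 and 0.997).

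Of 22 stress factors known to act upstream of these genes 10 were higher and 12 lower, 1 of them at an unadjusted p under 0.05. Sp3, which binds the GGGCGG box, had 67.4 ± 1.99 and 48.3 ± 6.18 CPM (SD, n = 3) with no overlap between groups (edgeR adjusted p = 0.481). Overlap was absent in 3 of the 22 factors, beside 13.7% of all genes tested. Klf4, which can induce Cdkn1a, had 78.7 ± 22.6 and 57.3 ± 5.3 CPM (edgeR adjusted p = 0.616), and Cebpd 43.7 ± 5.58 and 32.6 ± 4.39 CPM (edgeR adjusted p = 0.655).

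**Figure D5:**
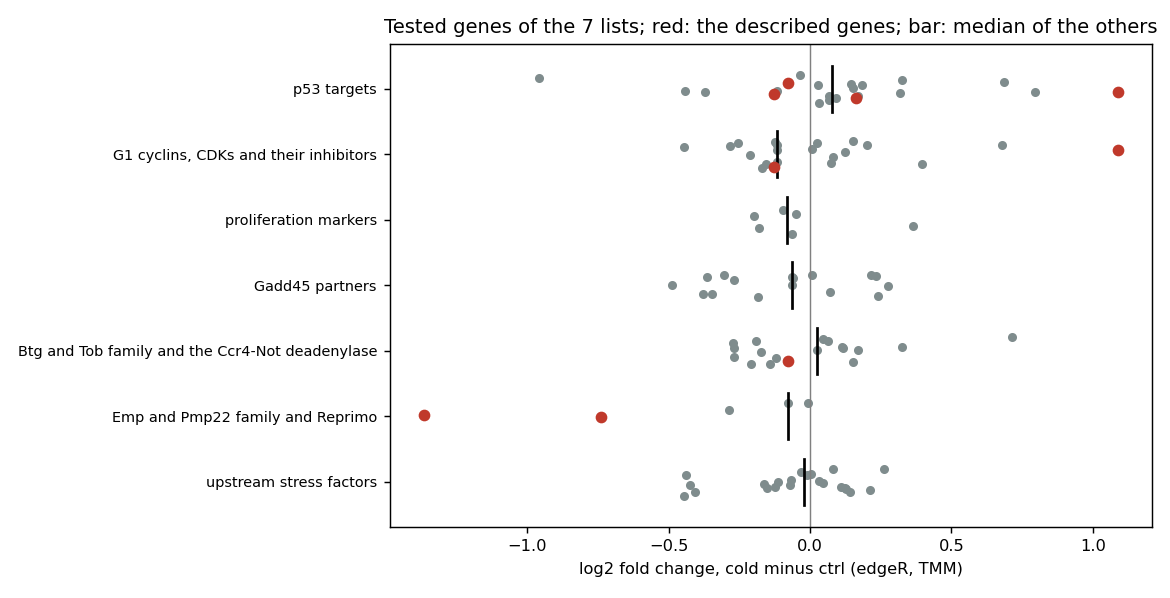
Log2 fold change, cold minus ctrl (x axis), of each tested gene in 7 lists (y axis; vertical scatter within a list has no meaning); red points are the 8 described genes where a list holds them, grey points the other genes, and the bar is the median of the grey points. The medians lie between -0.12 and 0.08, and the red points of Rprml (-1.36) and Cdkn1a (1.09) lie at the ends of their lists.

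The genes whose pattern was most like that of each member were found by the root mean square difference of centred log2 CPM over the 6 mice, for the 7 members that averaged 20 reads or more in one of the groups. For Rprml they were Tmem69 and Zfp810 (0.18 and 0.22, beside a median of 0.72 over all tested genes), and for Gadd45g Srpx and Prkag3 (0.14 and 0.15, median 0.56). For Emp1 they were Atp11b and Cdkn2aip (0.09 and 0.09, median 0.47), and for Cdkn1a Wdr75 and Ino80b (0.18 and 0.18, median 0.70). Gadd45a was most like Tmem248 and Rmdn2, Btg2 like Desi1 and Itm2b, and Ccng1 like Lama5 and Col18a1, at differences of 0.04 to 0.07. These genes were picked for likeness from 9772, and the values are a description. The 20 reads were not asked of the genes found. Rmdn2, Zfp810, Srpx, Tmem69, Prkag3 and Wdr75 averaged only 10.2 to 14.5 reads per library, where counting error is large.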

How the data were processed

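The authors deposited raw read counts per transcript, 2 files (named X1 and X2) for each of 6 mice, which list transcripts with at least 1 read. Reads were aligned with minimap2 to GRCm38, per the submitters' processing notes, with no version; the tool that counted them, whether it used strand and how it treated ambiguous reads: not given in the sources used here. The 2 files of a mouse differed by about the sampling noise (chi-square 1.02 to 1.06 per degree of freedom) and were summed to 1 sample. Of 61729 transcript identifiers, 61538 were found in GENCODE M21, version ignored, and summed to 23492 genes; the other 191 held 0.139% to 0.165% of reads and were left out.

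Genes were tested with edgeR 4.0.16 (R 4.3.3; quasi-likelihood, TMM, filterByExpr with a minimum count of 10), with Benjamini-Hochberg adjustment over 9772 genes and a threshold of 0.05. The SE of a log2 fold change comes from the F statistic. Intervals and limits of a count of 0 (3 reads) cover counting error only. DESeq2 1.42.0, limma-voom 3.58.1, other scalings, filters and file subsets, and each mouse left out in turn were alternatives. The fit was tested on simulated counts. Lists, genes and tests were chosen with earlier results of these data known. From each list, genes past the threshold or else the 3 with the smallest p are named; Trp53, Mki67, Top2a, Rprm, Perp and E230016M11Rik were added after their values were seen. Gene positions are those of GENCODE M21, 1-based, and promoter sequences are from RefSeq. Protein sequences are not used here.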

Additional observations from a re-analysis of the deposited data

How the results depend on the processing

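No paired analysis was possible because the groups share no mouse numbers. Over the 10 alternative settings with all mice and the 6 without 1 mouse, Gadd45g, Rprml and Emp1 kept negative log2 fold changes. Those of Cdkn1a and Gadd45b stayed positive (Gadd45b was below the filter with X1 or X2 files alone). In Gadd45g, Rprml, Emp1 and Gadd45b the groups did not overlap in CPM, so leaving out 1 mouse could not turn the sign. The sign turned for 2 genes: Gadd45a ranged from -0.00055 (without ctrl 5) to 0.32 (without ctrl 10) with 1 mouse left out, and Btg2 was at 0.14 with X2 files. Of the 8 genes, 2 were called by DESeq2 (Gadd45g lost) and with X1 files, 1 with X2 files (Emp1) and 4 with no filter (Cdkn1a added), and between 0 and 4 with 1 mouse left out. The cause of these changes was not tested. The X1 and X2 settings used fewer reads and also tested fewer genes, 7832 and 6617. All called genes numbered 64, 371 with no filter, 38 with X2 files and 35 to 199 with 1 mouse left out (35 without cold 12, 106 without ctrl 5, 199 without cold 7).

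Among p53 targets, with Cdkn1a included, 0 genes were called, 2 with no filter (Cdkn1a and Perp) and 0 to 1 with 1 mouse left out, Perp without cold 7 and Cdkn1a without cold 16. Among G1 cyclins, kinases and inhibitors the count of 0 became 1 (Cdkn1a) with no filter and 0 to 1 with 1 mouse left out. In the list of Emp1, Pmp22 and Reprimo relatives, 2 genes were called, both among the 8 described, 1 with X2 files and 0 to 3 with 1 mouse left out. The share of Emp1 reads on Emp1-201 was higher in the cold by 0.33 percentage points, and differed by 1.70 points with X1 and -1.12 with X2 files. Gadd45b, at 7 to 17 reads per library, and Cdkn1a-202, at 0 to 3, are limited by depth.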
